A study of Mus musculus with 28 samples.

Results

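Neurotrophins are secreted growth factors of neurons that act through 2 kinds of receptor at the cell surface. The genes described here are 3 ligands and 3 receptors: Bdnf (brain-derived neurotrophic factor), Ntf3 (neurotrophin-3), Ntf5 (neurotrophin-4), Ngfr (the p75 receptor), Ntrk2 (TrkB), and Ntrk3 (TrkC). They were taken by symbol from the table of genes counted in mouse molars, 6 of 52636 genes, and all 6 passed the filter on low counts together with 19101 genes in all. No measured value was used to choose them, but they were chosen with earlier results of these data known.

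Each RNAseq library is a single first molar tooth germ of a wild type C57BL/6JOlaHsd mouse embryo, dissected with little surrounding tissue. There are 7 teeth from 7 embryos at E13 (bud stage), 7 teeth from 6 embryos at E14 (cap stage), and 7 teeth from 5 embryos at E16 (bell stage), labelled E13.5, E14.5, and E16.5 by embryonic day. A further 7 lower first molars are labelled E15, of which 6, from 6 embryos, have a column in a second table of estimated counts. Left and right teeth of 1 embryo were counted as separate replicates, at E14 for 1 embryo and at E16 for 2. Such teeth are not independent of each other, so p values may be too small. No treatment or mutation was part of these groups, so the stage of the tooth is the comparison. The paper describes no mouse teeth of E15, so its account of strain and dissection covers E13, E14, and E16. The E15 samples are labelled by age and the others by embryonic day. Whether they were prepared together is not given in the sources used here. A difference in preparation therefore cannot be told apart from stage where E15 is compared. Teeth are named by embryo number and side, as tooth 3L, with X for an E13 tooth whose embryo number is not in the table.

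The Trk receptors are tyrosine kinases, and each prefers certain ligands: TrkB binds the products of Bdnf and Ntf5, and TrkC that of Ntf3. The p75 receptor binds all neurotrophins and their uncleaved precursors. Around teeth, neurotrophins are best known from the trigeminal nerve fibers that later enter the pulp, and the same genes are also transcribed in dental epithelium and mesenchyme, which do not become nerve.

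On GRCm38 (GENCODE M21), the ligand genes are Bdnf (ENSMUSG00000048482) at chr2:109674700-109727007 on the plus strand, Ntf3 (ENSMUSG00000049107) at chr6:126101412-126166910 on the minus strand, and Ntf5 (ENSMUSG00000074121) at chr7:45413695-45417179 on the plus strand. The receptor genes are Ngfr (ENSMUSG00000000120) at chr11:95568818-95587735 on the minus strand, Ntrk2 (ENSMUSG00000055254) at chr13:58806569-59133970 on the plus strand, and Ntrk3 (ENSMUSG00000059146) at chr7:78175959-78738012 on the minus strand. All counts are over exons of these genes.

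Ntrk2 and Ntrk3 each code for receptors with and without the kinase, and the counts are per gene, so the forms are summed in every value below. The coding sequences of Ntrk2 in the GENCODE M21 annotation (GRCm38) show what is merged. Transcripts Ntrk2-201 and Ntrk2-207 encode 821 residues. Truncated transcripts use the same coding sequence up to one splice junction and then end in short tails of their own. The tails of 3 of them are shown, because reads that cross this junction are what would tell the forms apart. Lower case letters are the last 30 shared coding bases and capitals the unique coding bases, on the plus strand of chromosome 13.

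Ntrk2-204 (476 residues, tail at chr13:58932023-58932057): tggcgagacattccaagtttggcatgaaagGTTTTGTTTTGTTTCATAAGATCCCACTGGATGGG
Ntrk2-205 (492 residues, tail at chr13:58878339-58878421): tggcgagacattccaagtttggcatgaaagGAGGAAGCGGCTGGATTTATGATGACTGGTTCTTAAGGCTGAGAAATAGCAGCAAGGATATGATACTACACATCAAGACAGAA
Ntrk2-209 (489 residues, tail at chr13:58887271-58887344): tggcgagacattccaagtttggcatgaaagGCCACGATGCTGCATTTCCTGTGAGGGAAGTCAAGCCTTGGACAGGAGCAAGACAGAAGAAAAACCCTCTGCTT

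The unique tails hold 35, 83, and 74 coding bases, without the untranslated bases that follow them. The whole gene has 19292 bases of exon, untranslated bases included. For Ntrk3, transcript Ntrk3-202 encodes 612 residues, and the longest, Ntrk3-206, 864. A difference in Ntrk2 or Ntrk3 below is therefore a difference of all forms together.

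The libraries held 17814073 to 27115729 counts on genes, with a median of 23827447. Values are given as CPM, counts divided by the TMM-scaled total of the library and multiplied by 1000000. The labelled tissue was present by its markers: all 7 listed markers of dental epithelium and all 7 of dental mesenchyme passed the filter, and none was at 0 in any tooth. Of 8 neuron markers 4 passed, and Prph and Isl1 were at 0 counts in 7 teeth each. Tooth 3L of E16 stands apart. Its summed markers of epithelium were 1507 CPM where the other E16 teeth had at least 2365, and those of mesenchyme 1130 where the others had at least 1653. It was also the lowest E16 tooth for the Schwann cell, neuron, cartilage, bone, endothelium, and macrophage lists. Tooth 7L of E13 had 267 CPM of skeletal muscle markers, against at most 47.5 in the other E13 teeth. Some values without them are given beside the results of the receptors.

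Among the ligands, Bdnf was higher at E14 than at E13 and E16, Ntf3 was highest at E13 and fell by E14, and Ntf5 did not pass the test in any comparison. Bdnf ranged from 3.74 to 5.75 CPM at E13 (median 4.78), from 5.38 to 10.2 at E14 (median 8.17), and from 4.43 to 5.95 at E16 (median 4.82). At E14, 6 of 7 teeth lay above every E13 and every E16 tooth, and tooth 1R lay within their range. The log2 fold change was 0.79 ± 0.14 (SE) from E13 to E14 (edgeR quasi-likelihood test, Benjamini-Hochberg adjusted p = 0.00028), a 1.73-fold rise, and -0.71 ± 0.14 from E14 to E16 (adjusted p = 0.000506). Between E13 and E16 it was 0.08 ± 0.14 (adjusted p = 0.680), so the E13 and E16 levels were not told apart.

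Ntf3, the ligand of TrkC, had 6.08 to 10.4 CPM at E13 (median 8.53), 3.33 to 6.41 at E14 (median 4.93), and 3.95 to 5.52 at E16 (median 4.29). The E13 and E16 teeth did not overlap, and at E14 only tooth 8L exceeded the lowest E13 tooth. Ntf3 fell by 0.70 on the log2 scale from E13 to E14 (SE 0.14, edgeR adjusted p = 0.000957) and was 1.84-fold lower at E16 than at E13 (adjusted p = 2.38e-05). From E14 to E16 the change of -0.18 ± 0.15 did not pass the test (adjusted p = 0.394).

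Ntf5, the other ligand of TrkB, had 4.46 to 8.45 CPM at E13 (median 5.34), 5.11 to 9.43 at E14 (median 5.90), and 5.92 to 7.43 at E16 (median 7.13). All stages overlapped. The log2 fold changes were 0.10 ± 0.15 from E13 to E14 (edgeR adjusted p = 0.714), 0.11 ± 0.15 from E14 to E16 (adjusted p = 0.640), and 0.20 ± 0.15 from E13 to E16 (adjusted p = 0.305).

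**Figure D1:**
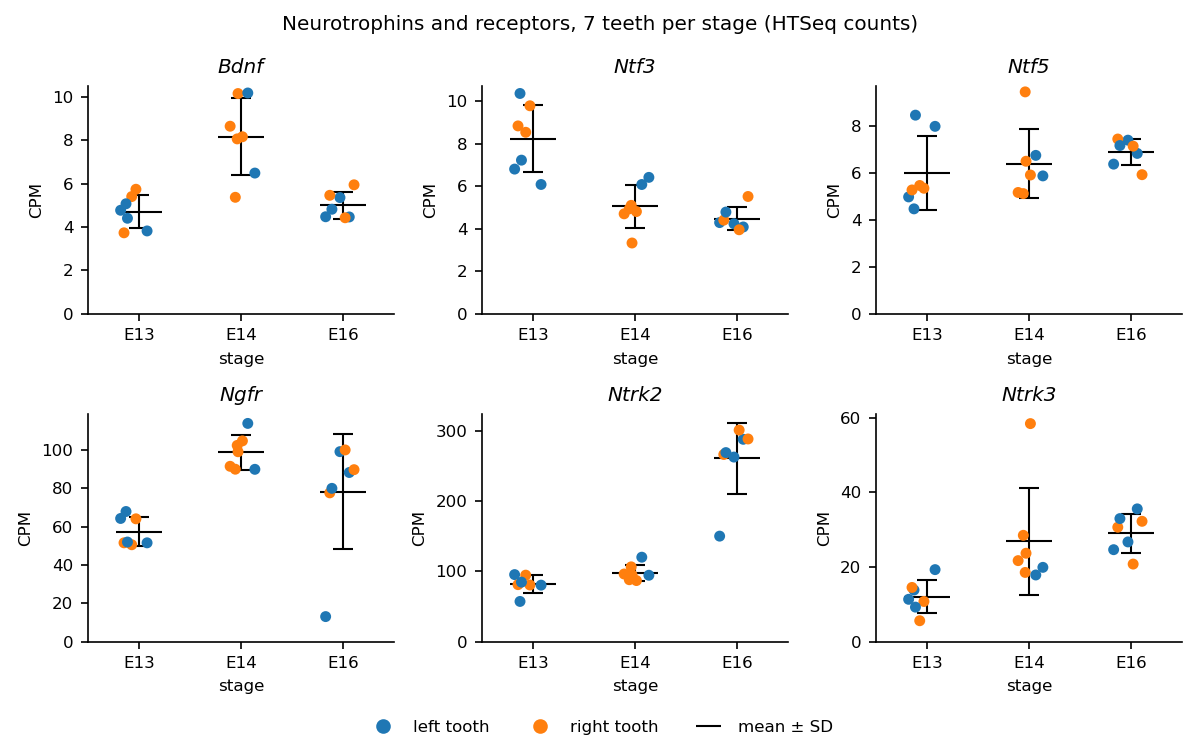
CPM (vertical axis from 0) of the 3 ligands (top) and 3 receptors (bottom) by stage, with each of the 7 teeth per stage as a point colored by side and black bars for the mean ± SD. Bdnf is highest at E14, Ntf3 at E13, and Ntrk2 at E16, where tooth 3L lies below the other teeth for Ngfr (13.1 CPM) and Ntrk2 (150 CPM).

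Of the receptors, Ngfr and Ntrk3 rose from E13 to E14 and Ntrk2 from E14 to E16. Ngfr, the p75 receptor, had 50.6 to 68.0 CPM at E13 (median 52.0) and 89.999 to 114 at E14 (median 99.2), with no overlap between these stages. It rose 1.72-fold (log2 fold change 0.78 ± 0.24, edgeR adjusted p = 0.0209). Without tooth 7L of E13, the highest of its stage, the change was 0.83 ± 0.25 (edgeR adjusted p = 0.0243). At E16, 6 teeth had 77.7 to 100 CPM and tooth 3L had 13.1. The other 6 teeth all lay above the E13 teeth, and the odd tooth below them.

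The E16 result for Ngfr depends on this tooth. With all teeth, the log2 fold change was 0.45 ± 0.24 between E13 and E16 (edgeR adjusted p = 0.136) and -0.34 ± 0.24 between E14 and E16 (adjusted p = 0.312). Without tooth 3L, Ngfr was called higher at E16 than at E13, with 0.65 ± 0.08 (adjusted p = 4.33e-07). The change from E14 to E16 was then -0.13 ± 0.08 (adjusted p = 0.231). The SE of the E13 to E14 change also fell, from 0.24 to 0.08, because the teeth of all stages share an estimate of the spread.

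Ntrk2, which codes for TrkB, showed the largest difference of the 6 genes. It had 57.1 to 95.3 CPM at E13 (median 81.0), 86.8 to 120 at E14 (median 94.8), and 150 to 301 at E16 (median 269). Every E16 tooth lay above every tooth of E13 and E14, including tooth 3L, which was the lowest E16 tooth with 150 CPM where the others had at least 263. Ntrk2 rose 2.66-fold from E14 to E16 (log2 fold change 1.41 ± 0.13, edgeR adjusted p = 5.26e-09) and 3.18-fold from E13 to E16 (1.67 ± 0.13, adjusted p = 1.06e-10). Without that tooth the changes were 1.52 ± 0.09 and 1.78 ± 0.09.

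The earlier step was small for Ntrk2. The log2 fold change from E13 to E14 was 0.26 ± 0.12 (edgeR adjusted p = 0.147), and the stages overlapped. It passed the test without tooth 3L of E16 (0.26 ± 0.09, adjusted p = 0.0234), which is in neither stage but enters the shared estimate of the spread. The lowest E13 tooth, at 57.1 CPM, was tooth 7L, the one with muscle markers, and the other 6 had 80.3 to 95.3. Without tooth 7L the change was 0.19 ± 0.12 (adjusted p = 0.293).

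Ntrk3, which codes for TrkC, was higher at E14 and E16 than at E13. It had 5.60 to 19.3 CPM at E13 (median 11.3), 17.9 to 58.5 at E14 (median 21.7), and 20.8 to 35.6 at E16 (median 30.7). The E13 and E16 teeth did not overlap, and 5 of 7 E14 teeth lay above every E13 tooth. The rise was 2.23-fold from E13 to E14 (log2 fold change 1.16 ± 0.25, edgeR adjusted p = 0.00143) and 2.40-fold from E13 to E16 (1.27 ± 0.25, adjusted p = 0.000187). From E14 to E16 the change of 0.11 ± 0.24 did not pass the test (adjusted p = 0.771). The rise from E13 to E14 was 1.19 ± 0.26 without tooth 7L of E13 (edgeR adjusted p = 0.00248). Without tooth 3L of E16 it was 1.16 ± 0.24 (edgeR adjusted p = 0.000751).

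The highest value of Ntrk3 came from tooth 3R of E14, with 58.5 CPM where the next E14 tooth had 28.5. Without it, the rise from E13 to E14 was 0.84 ± 0.19 on the log2 scale (edgeR adjusted p = 0.00313), and that from E14 to E16 was 0.44 ± 0.19 (adjusted p = 0.0891). The same tooth had 20.99 CPM of summed muscle markers, where the other E14 teeth had at most 15.6. Its endothelial sum was also the highest (403 CPM, the others at most 394) and its bone sum the lowest (399 CPM, the others at least 460). Its epithelial, mesenchymal, Schwann cell (62.1 CPM), and neuron (28.1 CPM) sums lay within the range of the other E14 teeth. Among the neuron markers, Nefl (13.7 CPM) and Elavl3 (0.508) had their highest E14 value there. Tubb3 (9.18) and Elavl4 (2.19) were below their E14 medians of 12.4 and 2.29. The part of these markers in the Ntrk3 value was not tested.

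**Figure D2:**
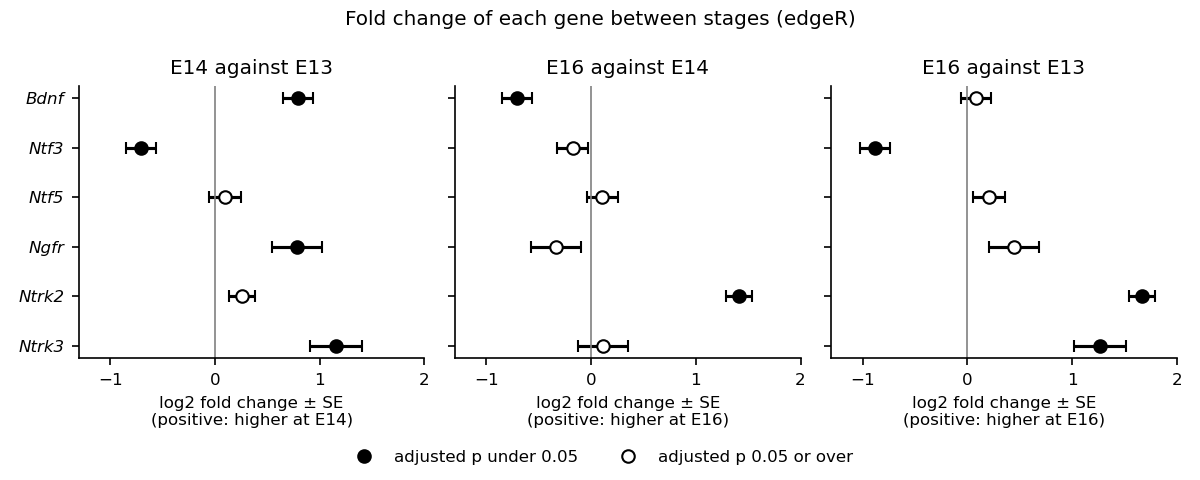
Log2 fold change ± SE of each gene (horizontal axis, edgeR) between E13 and E14, E14 and E16, and E13 and E16, with positive values higher at the later stage and filled points for an adjusted p under 0.05. Bdnf changes sign between the first comparisons (0.79 and -0.71), and Ntrk2 shows the largest values at E16 (1.41 and 1.67).

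From E13 to E14, 3 of the 6 genes rose (Bdnf, Ngfr, and Ntrk3) and 1 fell (Ntf3), against 11.3% of all genes tested that rose and 8.47% that fell (19.7% in either direction). From E14 to E16, 1 rose (Ntrk2) and 1 fell (Bdnf), against 15% and 13.1% of all genes (28.1% in either direction). From E13 to E16, 2 rose (Ntrk2 and Ntrk3) and 1 fell (Ntf3), against 21.6% and 19.6% (41.3% in either direction). The median log2 fold change of the 6 genes was 0.52, -0.035, and 0.33 in these comparisons, beside -0.0083, 0.0037, and -0.0095 over all genes tested. Without tooth 3L of E16 the members called numbered 5, 2, and 4 in the same order, with Ntrk2 added from E13 to E14 and Ngfr from E13 to E16. In that fit more of all genes were called as well, with 30.4%, 34.3%, and 48.7% in either direction. These comparisons share their teeth, so they are not independent of each other.

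The levels of different genes can be compared only per length. With CPM per kilobase of all annotated exons, Ngfr had the highest median of the 6 genes at each stage, with 15.1 at E13, 28.8 at E14, and 25.6 at E16. By this measure 80.2%, 91.8%, and 90.5% of 14564 protein-coding genes tested were lower than Ngfr. At E13 the median of Ntf3 came next (4.98), followed by Ntrk2 (4.20), Ntf5 (2.01), Bdnf (0.768), and Ntrk3 (0.376), each of these overlapping its neighbor in the order over the teeth except for Ntf5 and Bdnf.

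At E16, Ntrk2 was second with 13.9 CPM per kilobase, and the share of protein-coding genes below it went from 42.1% at E13 and 46.1% at E14 to 78.2%. The remaining 4 genes stayed between 0.776 (Bdnf) and 2.69 (Ntf5). The order depends on the length used, since Ntrk2 and Ntrk3 have long exons that not every transcript includes. With the length of the longest coding transcript (8744 bases for Ntrk2, 3446 for Ngfr), Ntrk2 had 30.8 CPM per kilobase at E16 and Ngfr 25.6. Ntrk3 at E16 had 11.1 by that length and 1.02 by all exons. The E13 order by that length was Ngfr (15.1), Ntrk2 (9.27), Ntf3 (6.10), Ntrk3 (4.09), Ntf5 (2.72), and Bdnf (1.22).

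The 2 kinds of receptor and the pairs of ligand and receptor were compared within each tooth, as the log2 ratio of counts. Such a ratio does not depend on the scaling between libraries. It does depend on the lengths of the genes, so only its change between stages is compared, and not which gene has more counts. There were 15 comparisons, tested with an exact permutation test over all 3432 splits of the teeth (two-sided), for which the smallest p is 0.000583.

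The ratio of p75 to the Trk receptors (Ngfr to Ntrk2 plus Ntrk3) had a median of 0.554 at E13, 0.788 at E14, and 0.273 in the E16 teeth. On the log2 scale the E13 teeth averaged -0.71 ± 0.33 (SD), the E14 teeth -0.34 ± 0.07, and the E16 teeth -2.07 ± 0.75. The rise of 0.37 from E13 to E14 (exact permutation test, adjusted p = 0.0226) and the changes of -1.74 from E14 (adjusted p = 0.00125) and -1.36 from E13 to E16 (adjusted p = 0.00125) passed the test. The E16 teeth did not overlap those of the earlier stages. Without tooth 3L of E16, the ratio fell by 1.46 from E14 and by 1.09 from E13 (adjusted p = 0.00146 for each). Without tooth 7L of E13, the rise from E13 to E14 was 0.48 (exact permutation test, adjusted p = 0.00125).

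Between the Trk receptors, the ratio of Ntrk2 to Ntrk3 had a median of 7.47 at E13, 4.42 at E14, and 8.67 at E16. It rose by 1.17 on the log2 scale from E14 to E16 (exact permutation test, adjusted p = 0.00219). The change of -0.85 from E13 to E14 was just past the threshold (adjusted p = 0.0457) and was no longer past it when any of 9 single teeth was left out, among them tooth 3R of E14 (-0.62, adjusted p = 0.0918). From E13 to E16 the difference was 0.32 (adjusted p = 0.313).

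For the ligands, Ntf3 counts were above Bdnf counts in every E13 tooth (median ratio 1.63) and below them in every E14 and E16 tooth (0.598 and 0.914). The log2 ratio fell by 1.48 from E13 to E14 (exact permutation test, adjusted p = 0.00125) and then rose by 0.52 to E16 (adjusted p = 0.0226). With teeth of 1 embryo averaged, this later rise of 0.50 did not pass the test (adjusted p = 0.0849).

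The ratio of receptor to ligand was higher at E16 than at E13 in both pairs compared. Ntrk3 counts were a median of 1.34 times those of its ligand Ntf3 at E13, 4.60 times at E14, and 6.29 times at E16. These multiples are of counts and not of levels per length. The log2 ratio rose by 1.83 from E13 to E14 (exact permutation test, adjusted p = 0.00291) and by 2.20 from E13 to E16 (adjusted p = 0.00125), while 0.37 from E14 to E16 did not pass (adjusted p = 0.244). Without tooth 3R of E14 the last value was 0.59 and passed (adjusted p = 0.0342).

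For Ntrk2 and its ligand Bdnf, the median ratio of counts went from 19.1 at E13 to 11.8 at E14 and 48.8 at E16. The log2 ratio fell by 0.51 from E13 to E14 (exact permutation test, adjusted p = 0.0210) and rose by 2.07 from E14 to E16 (adjusted p = 0.00125), so that it was 1.56 higher at E16 than at E13 (adjusted p = 0.00125). The E16 teeth lay above all teeth of E13 and E14.

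**Figure D3:**
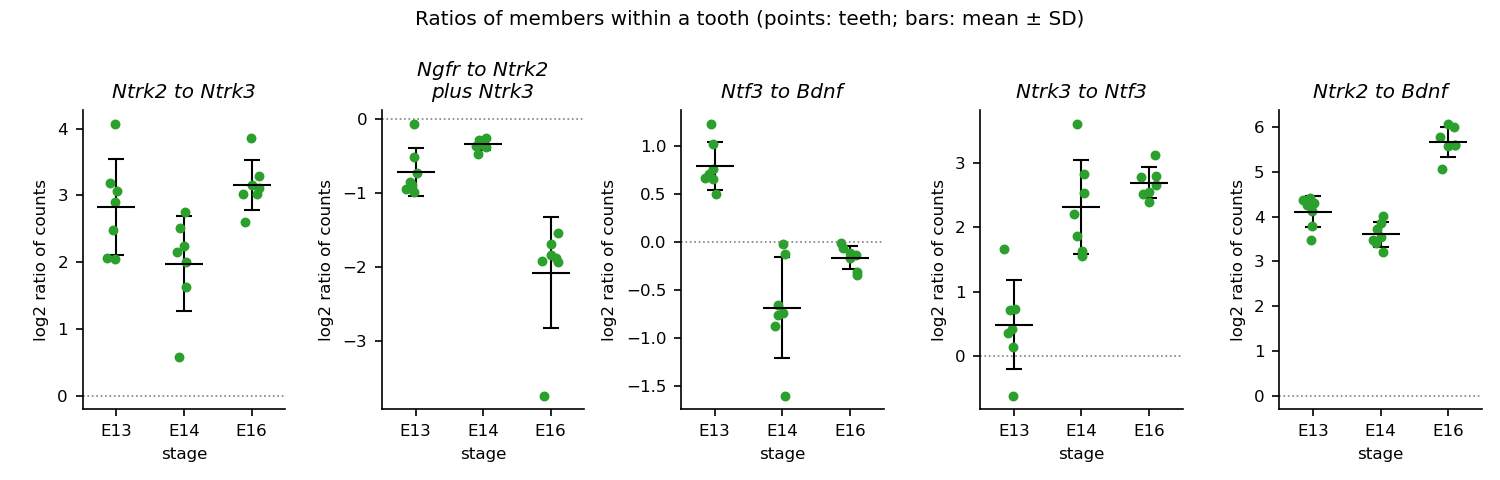
Log2 ratio of counts of 2 members within each tooth (vertical axis, points), by stage, with bars for the mean ± SD of 7 teeth and a dotted line at equal counts. Equal counts are not equal levels per length. The ratio of Ntf3 to Bdnf is higher in every E13 tooth than in any E14 or E16 tooth. That of Ntrk2 to Bdnf is highest at E16 (mean 5.68).

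Markers of the epithelium and of the mesenchyme also changed over the same stages. The 7 epithelial markers rose in all comparisons, 7 of 7 each time, and their summed level had a median of 708 CPM at E13, 1202 at E14, and 2552 at E16. Of the 7 mesenchymal markers 2 fell from E13 to E14, 4 from E14 to E16, and 5 from E13 to E16, and the median of their sum went from 3319 to 2887 and 1671 CPM. In a whole tooth germ, fewer cells of a type and less RNA per cell cannot be told apart, and neither can more of them.

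Relative to the epithelial sum of the same tooth, Ntrk2 was lowest at E14. The log2 ratio ranged from -3.48 to -2.89 at E13 (median -3.13), from -3.79 to -3.35 at E14 (median -3.71), and from -3.37 to -3.09 at E16 (median -3.19). The E13 and E16 ranges overlapped, and tooth 3L of E16 lay within the E16 range, although its Ntrk2 level was low. This ratio was chosen after the values were seen and is given without a test, and the part of the epithelial share in the rise of Ntrk2 was not tested.

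Ngfr and Ntrk3 had their higher levels at stages when the mesenchymal sum was lower. Relative to that sum, Ngfr had a median log2 ratio of -5.99 at E13, -4.95 at E14, and -4.31 at E16, and Ntrk3 of -8.18, -7.13, and -5.69. For tooth 3L of E16, the log2 ratio of Ngfr was -6.44, below every other tooth, so the shortfall of Ngfr in this tooth was larger than that of the mesenchymal sum. The tooth was not low in cell type markers alone. Arhgdia and Maged1, listed as adaptors of p75, had 41.5 and 195 CPM there (E16 medians 254 and 580). Kidins220 (212 CPM, median 237) and Krt14 (381 CPM, median 378) were close to their E16 medians. The cause of this unevenness was not tested. The Schwann cell markers, which mark glia that also carry p75, had a summed median of 57.3, 59.1, and 81.7 CPM, of which Erbb3 made up 36.1, 43.5, and 60.0, and Sox10 had a median of 4.246, 3.204, and 1.964. Of the 8 Schwann cell markers, 1 rose and 1 fell from E13 to E14, 2 rose from E14 to E16, and 2 rose and 3 fell from E13 to E16, where their median log2 fold change was -0.65. The neuron markers had a sum of 21.1, 24.2, and 19.2 CPM, and of the 4 tested, 1 rose and 1 fell, 1 rose and 2 fell, and 2 rose and 2 fell in these comparisons. The part of these cell types in the receptor levels was not tested.

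**Figure D4:**
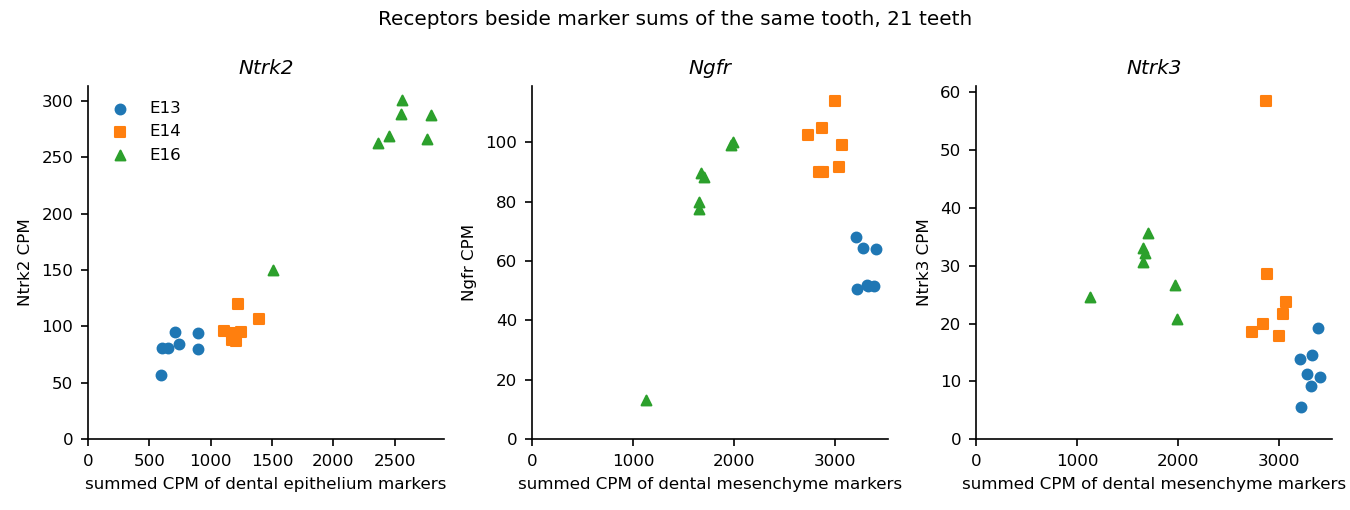
CPM of Ntrk2, Ngfr, and Ntrk3 (vertical axes) in each of 21 teeth against the summed CPM of the 7 epithelial or 7 mesenchymal markers of the same tooth (horizontal axes), with symbols for stage. Ntrk2 and the epithelial sum are both highest in the E16 teeth, while Ngfr and Ntrk3 are higher in most E14 and E16 teeth than in E13 teeth although the mesenchymal sum is lower.

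Left and right teeth of the same embryo were close. In the 3 embryos with both teeth, the left to right ratio of CPM lay between 0.811 and 1.31 over the 6 genes. Ntrk2, for example, had 263 and 301 CPM in teeth 6L and 6R of E16, and 269 and 288 in teeth 8L and 8R.

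The E15 teeth were compared only within the second table, together with the E13 and E16 teeth. Ntrk2 had 65.8 to 112 CPM at E13 (median 96.6), 175 to 231 at E15 (median 210), and 197 to 351 at E16 (median 313). The E15 teeth lay above all E13 teeth, and below all E16 teeth but tooth 3L, which had 197 CPM. Ntrk2 rose from E13 to E15 (log2 fold change 1.12 ± 0.12, edgeR adjusted p = 2.99e-07) and again from E15 to E16 (0.56 ± 0.12, adjusted p = 0.00563). Without tooth 3L of E16 the latter was 0.64 ± 0.10 (adjusted p = 0.000124).

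Ntrk3 had 6.96 to 21.6 CPM at E13 (median 13.96), 18.3 to 36.7 at E15 (median 29.9), and 24.7 to 41.7 at E16 (median 35.3). It rose from E13 to E15 (log2 fold change 1.02 ± 0.19, edgeR adjusted p = 0.000339), and the change of 0.25 ± 0.19 from E15 to E16 did not pass the test (adjusted p = 0.570). These were the 2 members that rose from E13 to E15, and none fell, against 18.3% of all genes that rose and 8.49% that fell (26.8% in either direction). From E15 to E16 only Ntrk2 rose and none fell, against 3.64% and 2.69% of all genes (6.33% in either direction). From E13 to E16 this table gave the same calls as the other, with Ntrk2 and Ntrk3 higher and Ntf3 lower, against 36.4% of all genes called.

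The SDs of the 3 ligands were larger at E15 than at E13 and E16. Ntf3 ranged from 4.18 to 10.3 CPM (median 5.86), with a SD of 2.66 against 1.76 at E13 and 0.713 at E16. Its change from E13 to E15 was -0.53 ± 0.21 on the log2 scale (edgeR adjusted p = 0.0626) and passed without tooth 5L (-0.70, adjusted p = 0.0129) or 8L (-0.63, adjusted p = 0.0344) of E15. Bdnf had 2.90 to 7.88 CPM at E15 (median 5.57) and a log2 fold change of -0.04 ± 0.21 from E13 (adjusted p = 0.918), and Ntf5 of 0.17 ± 0.19 (adjusted p = 0.561).

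Ngfr at E15 had 55.0 to 99.3 CPM (median 65.9), overlapping E13 (57.9 to 79.1). The log2 fold change was 0.13 ± 0.26 from E13 to E15 (edgeR adjusted p = 0.741) and 0.31 ± 0.26 from E15 to E16 (adjusted p = 0.618). Without tooth 3L of E16, the latter was 0.50 ± 0.14 and passed (adjusted p = 0.0204). E14 teeth have no column in this table, so the E14 peak of Bdnf and the E14 level of Ngfr were not set against E15.

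**Figure D5:**
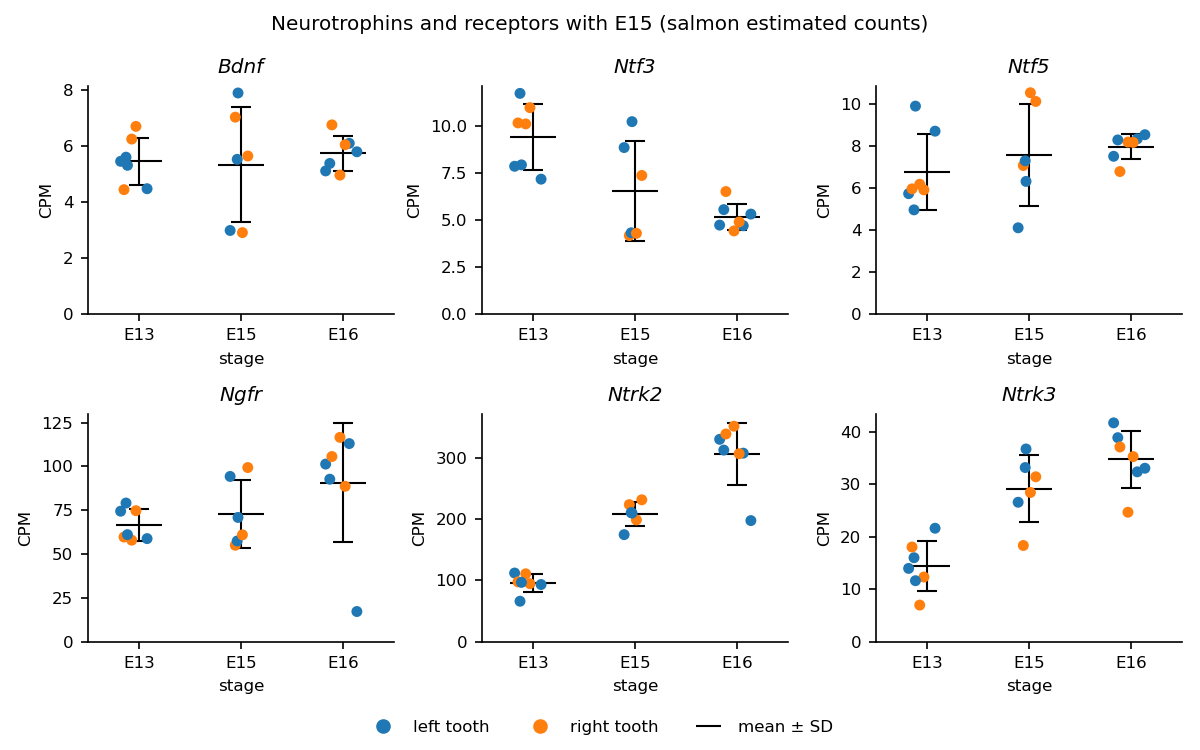
CPM of the 6 genes from the table of estimated counts (vertical axis from 0) at E13 (7 teeth), E15 (6 teeth), and E16 (7 teeth), with points for teeth colored by side and black bars for the mean ± SD. Ntrk2 steps up from E13 (median 96.6) to E15 (210) and E16 (313), and the E15 teeth are widely spread for Bdnf and Ntf3.

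Of 39 other genes of the pathway, all were tested, and they moved in both directions. From E13 to E14, 5 rose and 8 fell (33.3% called), from E14 to E16, 4 rose and 8 fell (30.8%), and from E13 to E16, 3 rose and 9 fell (30.8%). The shares of all genes called were 19.7% (11.3% rose and 8.47% fell), 28.1% (15% and 13.1%), and 41.3% (21.6% and 19.6%). The median log2 fold change of these pathway genes was -0.027, -0.054, and -0.13.

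Among genes that act on Trk receptors, Slitrk5, a transmembrane protein that interacts with TrkB, fell at each step. It had 31.3 to 40.7 CPM at E13 (median 36.8), 12.6 to 33.7 at E14 (median 15.96), and 3.38 to 5.79 at E16 (median 4.25). The log2 fold change was -0.96 ± 0.17 from E13 to E14 (edgeR adjusted p = 0.000226) and -2.01 ± 0.18 from E14 to E16 (adjusted p = 7.4e-09). Kidins220, a scaffold bound to Trk receptors and p75, rose from a median of 148 CPM at E14 to 237 at E16 (0.63 ± 0.06, adjusted p = 3.55e-08). Shc3, an adaptor of activated Trk receptors, had a median of 4.18 CPM at E13, 8.11 at E14, and 2.25 at E16, and fell by 1.74 on the log2 scale from E14 to E16 (adjusted p = 3.29e-07). In the group of 20 Trk adaptors and regulators, 2 rose and 4 fell at the first step, 3 rose and 6 fell at the second, and 1 rose and 7 fell from E13 to E16.

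Of the 5 genes of ligand processing, Pcsk5, a proprotein convertase, went from a median of 81.2 CPM at E13 to 54.1 at E14 and 34.2 at E16 (log2 fold change from E13 to E16 -1.25 ± 0.08, edgeR adjusted p = 1.33e-11). From E13 to E14, 2 of the 5 rose and Pcsk5 fell. Of the 7 sorting receptors and co-receptors, 2 fell from E13 to E14, 1 from E14 to E16, and 1 from E13 to E16, and none rose. Of all genes tested, 11.3%, 15%, and 21.6% rose and 8.47%, 13.1%, and 19.6% fell. The counts of these 7 genes were not tested against those shares. Among them Sorcs3, a relative of sortilin, fell from a median of 8.58 CPM at E13 to 4.27 at E14 (-0.95 ± 0.15, edgeR adjusted p = 4.19e-05) and to 3.29 at E16. Of the 7 adaptors of p75, 1 rose and 1 fell from E13 to E14, 1 rose from E14 to E16, and none passed the test from E13 to E16.

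For the 5 members called in at least 1 comparison, the 3 genes of most similar profile were found as those with the smallest mean absolute difference of centered log2 CPM over the 21 teeth, out of 13481 protein-coding genes. For Bdnf they were Inhba (0.192), Skil (0.196), and Piezo2 (0.200), where Bdnf itself deviated from its mean by 0.335. For Ntrk2 they were Acpp (0.170), Ppl (0.185), and Eps8l2 (0.195), with a deviation of 0.676 for Ntrk2. For Ngfr they were Actg1 (0.164), Cotl1 (0.171), and Cdc42ep2 (0.174), with 0.464 for Ngfr. For Ntf3, whose deviation was 0.373, they were Phldb2 (0.159), Zfp239 (0.161), and Inpp4b (0.187). The profile of Ntrk3 was matched least closely, with Grin2b (0.259), Sh3rf3 (0.276), and Cd53 (0.280) and a deviation of 0.571. A profile over the teeth includes single teeth such as tooth 3L of E16, and the match is a description of levels alone.

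Bdnf and Ngfr rose together from E13 to E14 (log2 fold changes 0.79 and 0.78), and the starts of both genes are shown for that reason, as the 250 bases before RefSeq starts on GRCm38.p6. Bdnf has 7 such windows, since its first exons are alternative, and the window shown is the one of these with 2 GC boxes. Capitals mark the GC box, searched as GGGCGG and its reverse complement CCGCCC.

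Ngfr (chr11:95587699-95587948, minus strand): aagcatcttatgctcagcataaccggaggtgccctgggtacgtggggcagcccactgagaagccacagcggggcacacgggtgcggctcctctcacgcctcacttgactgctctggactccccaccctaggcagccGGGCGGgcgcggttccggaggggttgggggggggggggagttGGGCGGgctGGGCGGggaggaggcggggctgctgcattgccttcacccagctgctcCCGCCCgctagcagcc
Bdnf (chr2:109676782-109677031, plus strand): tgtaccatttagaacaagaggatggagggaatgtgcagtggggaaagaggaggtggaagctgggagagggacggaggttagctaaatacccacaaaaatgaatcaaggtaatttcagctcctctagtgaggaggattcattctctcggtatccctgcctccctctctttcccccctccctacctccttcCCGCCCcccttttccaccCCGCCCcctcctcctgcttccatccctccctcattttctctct

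The Ngfr window holds 4 GC boxes and 70.4% G and C, and 2 of the 7 Bdnf windows hold a GC box. Over 32851 windows of the same length, 32.7% hold at least 1. The TATA box (TATAAA or TTTATA) and the CCAAT box (CCAAT or ATTGG), held by 12.4% and 33.8% of all windows, were not found in the Ngfr window or in any Bdnf window, and the motifs do not overlap each other. The Ntrk2 window holds none of the 3 motifs, and both Ntf3 windows hold a GC box. No measurement of these data was made at the starts themselves.

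The counts of Bdnf, Ntrk2, and Ntrk3 have a further limit. Bdnf overlaps 1 annotated gene on the opposite strand, Ntrk2 overlaps 4 genes, and Ntrk3 4, some of them antisense. The strand setting of the counting is not given in the sources used here, so reads of these genes and of their antisense partners may not be told apart. Ntf3, Ntf5, and Ngfr overlap no annotated gene.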

How the data were processed

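RNAseq of single molars was analyzed, 21 teeth of E13, E14, and E16 and 6 teeth of E15. The authors filtered the reads (FastQC, AfterQC, Trimmomatic), aligned them with STAR to GRCm38 with Ensembl release 90, and deposited raw counts per gene made with HTSeq. They also deposited estimated counts from salmon, rounded to whole numbers, which cover 14185 genes in E13, E15, and E16. The index and choice of genes of that table are not given in the sources used here. Groups came from the sample labels. In the table of counts 1 E13 column has no embryo number and was used by its stage, and 1 E15 sample has no column.

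Counts were fitted with the quasi-likelihood test of edgeR 4.0.16 (R 4.3.3, TMM, filterByExpr, 1 factor for stage, all teeth of a table in 1 fit), with Benjamini-Hochberg adjustment over all genes tested and a threshold of 0.05. SE is the log2 fold change over the square root of F. Fold changes used the default prior count of edgeR, the log2 CPM of the similar profiles a prior count of 2, and within-tooth ratios a pseudocount of 0.5. The common coefficient of variation between teeth was 21.2%, estimated over all genes tested and not for the members. The ligands had 77 to 253 counts per tooth, so counting noise also enters their spread. The fits were tested on simulated counts in which teeth were independent and no tooth was made to stand apart. That test therefore does not cover teeth such as 3L of E16 or left and right teeth of 1 embryo. Gene coordinates and lengths are from GENCODE M21, which lacks 147 identifiers of the table, and start windows from RefSeq. Start windows were found for Bdnf, Ntf3, Ngfr, and Ntrk2. Figures were drawn with matplotlib 3.10.9.

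Alternatives were other scalings (DESeq2 1.42.0 size factors, upper quartile), DESeq2, other filters, teeth of an embryo summed, side as a factor, the embryo number as a block, the compared stages alone, another pseudocount, the second table, and each tooth left out. The members and gene lists were chosen with earlier results of these data known. Genes named are the 6 members, those among the 4 other pathway genes of lowest adjusted p in each comparison (some listed genes are not reported here), the 3 most similar profiles, and markers. Comparisons of receptors with marker sums were added after seeing the data, as were the values of Arhgdia, Maged1, Kidins220, and Krt14 in tooth 3L of E16.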

Additional observations from a re-analysis of the deposited data

Results flagged for a closer look

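In 5 of 24 groups of teeth tested, 1 tooth lay far from the others of its stage, where chance gives about 1 in 20. Ngfr had 13.1 CPM in tooth 3L (left, embryo 3) of E16, where the nearest other tooth had 77.7. Ntrk2 had 150 CPM in the same tooth, where the nearest had 263. Ntrk2 had 57.1 CPM in tooth 7L of E13, where the nearest had 80.3. Ntrk3 had 58.5 CPM in tooth 3R of E14, where the nearest had 28.5. Ntf5 had 9.43 CPM in tooth 2R of E14, where the nearest had 6.74.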

How the results depend on the processing

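Of 141 counts of members called under an alternative, 139 were within 1.5 times the count reported, and of 846 fold changes 825 kept their direction and their side of the threshold. The exceptions among counts were those from E15 to E16, where 0 members were called by edgeR with the embryo number as a replicate block (2 had an unadjusted p under 0.05, and DESeq2 without the block called 1) and 2 without tooth 3L of E16. Teeth with the same embryo number come from different embryos. Over 15 such pairs the correlation of deviations from the stage means ranged from -0.090 to 0.199 (median 0.0357). Over 132 pairs of unlike number it ranged from -0.247 to 0.270 (median -0.0038). Of 21 teeth, 5 correlated best with their own number. How many would do so by chance was not worked out, so these values do not settle whether the number pairs the teeth. The block lowered the calls from E13 to E14 over all genes from 2150 up and 1617 down to 1093 and 584. Under it Ngfr from E13 to E14 (0.62, adjusted p = 0.275) and Ntrk2 from E15 to E16 (0.58, adjusted p = 0.0547) were not called, and Ntf5 from E13 to E16 was (0.43, adjusted p = 0.0359). Fitting only the stages compared gave 3128 up and 2513 down from E13 to E14 and called Ntrk2 there (0.26, adjusted p = 0.0390). Without tooth 3L of E16, 5855 genes were called from E13 to E14 and, in the second table, 1382 from E15 to E16 where all teeth gave 851. Ntf3 from E13 to E15 was called with DESeq2 (-0.57, adjusted p = 0.0278) and its size factors (-0.57, adjusted p = 0.0442).

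Changes of direction occurred only in fold changes that did not pass the test. With the block they were Bdnf at 0.013 (E13 to E15) and -0.097 (E13 to E16), and Ngfr at -0.22 (E13 to E15). With single teeth left out, Bdnf ranged from -0.18 to 0.090 from E13 to E15 (with values of 0.020, 0.090, and 0.086 without tooth 1R of E13 or 4R or 8L of E15) and from -0.020 to 0.25 from E15 to E16. Ntf5 ranged from -0.025 (without tooth 2R of E14) to 0.19 from E13 to E14 and from -0.054 (without tooth 8L of E15) to 0.19 from E15 to E16. The cause was not tested.

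Of 345 within-tooth ratios, 334 kept direction and side. Ntrk2 to Ntrk3 from E13 to E14 ranged from -0.98 to -0.62 with single teeth left out (adjusted p 0.0242 to 0.0918), and the call was lost without tooth 1R, 3L, 5R, or XL of E13 or tooth 1R, 3R, 5R, 6R, or 8L of E14. Ntrk3 to Ntf3 from E14 to E16 ranged from 0.24 to 0.59. Ntf3 to Bdnf from E14 to E16 was 0.50 with teeth of an embryo averaged. The count of members called from E15 to E16 ranged from 1 to 2 with single teeth left out.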
